A study of Mus musculus with 15 samples.

Results

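Glutathione is the main small thiol of cells. Glutathione transferases attach it to electrophiles such as lipid aldehydes, glutathione peroxidases use it to reduce hydrogen peroxide and lipid peroxides, and a handful of further enzymes make, reduce or break it down. In the ovary, steroid-producing cells hold much of both enzyme families, since cholesterol side chain cleavage and the cytochrome P450 reactions leak reactive oxygen. Alpha-class transferases also bind steroids, and some of them isomerize ketosteroids.

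The genes described here follow a rule on gene symbols, written with earlier results of these data known. They are the transferases of the alpha, mu, pi, theta, omega, kappa and zeta classes (Gsta, Gstm, Gstp, Gstt, Gsto, Gstk and Gstz), the microsomal transferases (Mgst), the peroxidases (Gpx), and the genes Gss, Gsr, Ggct, Ggt1 and Ggt5 of glutathione synthesis, reduction and turnover. Of the 27907 genes in the table, 37 were members, after 1 pseudogene was dropped. They comprised 4 Gsta, 7 Gstm, 2 Gstp, 4 Gstt, 2 Gsto, 1 Gstk, 1 Gstz, 3 Mgst and 8 Gpx genes and the 5 others. The measurement was messenger RNA sequencing of ovaries of 6-month-old female mice in estrus, 1 library per mouse. HSD17B1-KI mice (n = 7) were homozygous for a Ser143Ala point mutation of Hsd17b1 that was made with CRISPR/Cas9 and inactivates the enzyme that turns estrone into estradiol. WT mice (n = 8) carried no mutated copy, and both genotypes came from crosses of heterozygous mice. The mutation was in the germ line and so not limited to the ovary. Each library was RNA of ovary tissue with its cell types mixed, in which more cells of a type and more RNA per cell cannot be told apart. All values are normalized counts, the gene's reads divided by a size factor for the library.

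The libraries held 39092867 to 69972608 reads in HSD17B1-KI and 26544745 to 72362981 in WT. A point mutation cannot be checked from counts of Hsd17b1, which were 5459 to 17386 in HSD17B1-KI and 6479.7 to 14111 in WT. All 7 theca and interstitial, all 7 granulosa and all 5 oocyte markers were above 0 in every mouse. The summed theca and interstitial markers ranged from 658528 to 1015083 in HSD17B1-KI and from 423724 to 904818 in WT, and 2 of the 7, Insl3 and Nr5a1, were higher in HSD17B1-KI with DESeq2. This list also held Cyp17a1, Cyp11a1, Star, Hsd3b1 and Lhcgr, and Lhcgr was in the luteal list too. HSD17B1-KI 4 and 5, with the least Cyp17a1 of their genotype, had the highest sums, 1015083 and 962135. WT 4, 7 and 8, with the most Cyp17a1 of WT, had its lowest sums, 453870, 554967 and 423724. The sum is therefore no measure of theca cells alone. The summed granulosa markers ranged from 69706 to 207219 in HSD17B1-KI against 84151 to 187551 in WT. They were 170490 to 207219 in HSD17B1-KI 1, 2, 3, 6 and 7, and 69706 and 89749 in numbers 4 and 5. In WT they were 187551 and 179610 in WT 4 and 7, and 84151 to 122040 in the other mice. The luteal markers ranged from 50343 to 140242 in HSD17B1-KI against 26822 to 136553 in WT, and the adipose from 4411 to 13576 against 5455 to 47340.0. Medians in HSD17B1-KI and WT were 851608 and 680177 for theca and interstitial, 181821 and 100373 for granulosa, and 85772 and 46803 for luteal markers. Those for adipose markers were 6476 and 13165, and those for oviduct markers 615 and 14210. The oviduct markers ranged from 154 to 21946 in HSD17B1-KI and from 165 to 223285 in WT, where WT 1 and WT 8 held by far the most of the oviduct gene Ovgp1, 203321 and 127890.0. The Cyp17a1 count was 224 and 254 in HSD17B1-KI 4 and 5 and 107 and 141 in WT 3 and 6, against 2033 to 56551 in the other mice. Results below are given with and without these mice where a call turned on them, and the part of cell composition in the genotype differences was not tested.

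Because paralogs can share reads, their sequences are shown first. The 7 Gstm genes lie side by side on chromosome 3, from 107895821 (Gstm5) to 108044894 (Gstm4) on GRCm38, and their coding sequences are 68.2 to 89.4% identical in pairs. The first 60 coding bases of the 4 mu-class genes on which the results turn are given below 5′ to 3′, read from GENCODE transcripts, with capitals where a base differs from Gstm1. All 4 are transcribed from the minus strand.
Gstm1: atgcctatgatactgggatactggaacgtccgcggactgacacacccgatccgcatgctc
Gstm2: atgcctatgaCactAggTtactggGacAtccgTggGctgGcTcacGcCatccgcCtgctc
Gstm6: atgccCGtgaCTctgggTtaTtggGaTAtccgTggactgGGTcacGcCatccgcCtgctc
Gstm7: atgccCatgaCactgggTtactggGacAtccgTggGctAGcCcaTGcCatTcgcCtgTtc

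Gstm2 differed from Gstm1 at 12 of the 60 bases, and Gstm6 and Gstm7 at 16 each. Over the transcripts, 19.9% of the 50-base words of Gstm1, 9.74% of those of Gstm6, 8.3% of those of Gstm2 and 0.532% of those of Gstm7 also occurred in another gene. Counts of the first 3 are therefore uncertain, by an amount that these shares do not measure. In the alpha class, Gsta3 lies alone on chromosome 1 from 21240589 to 21265661, and Gsta4, Gsta1 and Gsta2 lie on chromosome 9 between 78182774 and 78355788. The same stretch of these 4 genes is shown with capitals where a base differs from Gsta3.
Gsta3: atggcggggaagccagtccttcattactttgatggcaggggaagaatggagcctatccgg
Gsta2: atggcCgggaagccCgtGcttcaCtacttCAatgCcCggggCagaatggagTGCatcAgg
Gsta1: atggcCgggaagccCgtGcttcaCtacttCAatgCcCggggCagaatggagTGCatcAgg
Gsta4: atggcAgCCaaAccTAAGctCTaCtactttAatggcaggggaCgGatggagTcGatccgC

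Gsta1 and Gsta2 read the same here and were 97.6% identical over the coding sequence, and 47.4% of the 50-base words of Gsta2 recurred, mainly in Gsta1. Of the 50-base words of Gsta1, 89.7% recurred, so the counts of both genes are uncertain. Gsta3 was 66% identical to Gsta4 and 75.5% to Gsta2, and none of the 50-base words of Gsta3 or Gsta4 occurred elsewhere. The same was true of Gstk1, Gpx3 and Gpx1. Gpx4 shared 51.4% of its words with other genes, mainly its pseudogenes, and Gstp1 and Gstp2 shared 51% and 50.4%, mainly with each other.

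Levels differed widely between paralogs. Per kilobase of exon, the mean normalized count in WT was 22631 for Gstm1, 18208 for Gstm2, 15655 for Gpx3, 9828 for Gpx1, 9327 for Mgst1 and 7086 for Gpx4. In HSD17B1-KI the per-kilobase mean of Gpx3 was 43402, next to 44344 for Gstm1 and above 35756 for Gstm2. Gstm6, from the same cluster as Gstm1, was at 413 per kilobase in WT and 1172 in HSD17B1-KI. Gsta4 was the highest alpha-class gene in both genotypes, at 3217 and 6054 per kilobase. At the other end, the uncertain count of Gsta1 did not exceed 3.48 normalized counts in any mouse, Gpx5, known from the epididymis, was above 0 in 1 mouse only, and Gstm3, Gstt4, Gpx6 and Gpx2 had means under 35 in both genotypes. Gsta1 and Gpx5 did not reach a mean of 2 and were not tested.

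**Figure D1:**
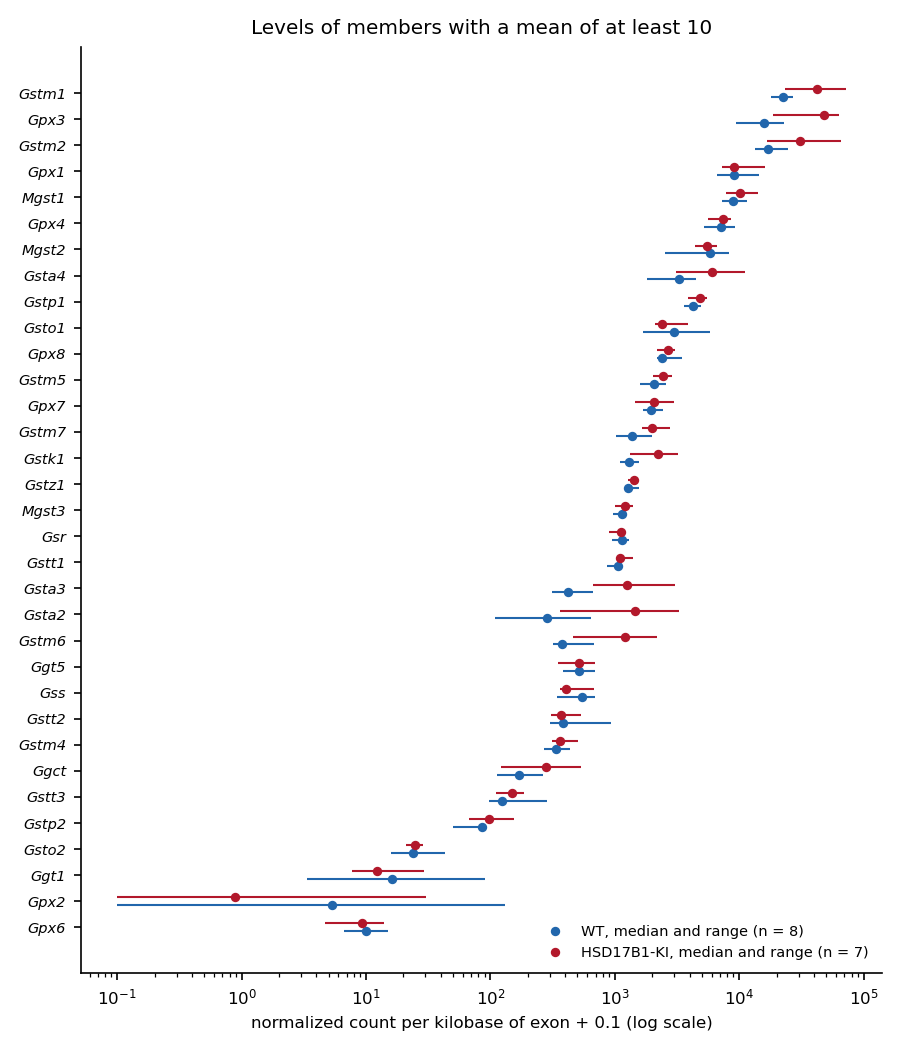
Median (point) and range (line) of the normalized count per kilobase of exon in WT (blue, n = 8) and HSD17B1-KI (red, n = 7) ovaries, on a log axis, for the 33 members with a mean of at least 10. Gstm1, Gpx3 and Gstm2 lie furthest to the right. For Gsta3, Gstm1, Gstk1, Gpx3 and Gstm6, among others, most of the red line lies to the right of the blue one.

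The genotype comparison asks which of these genes change when HSD17B1 activity is lost. Of the 35 members tested, 3 were higher in HSD17B1-KI with limma-trend, namely Gsta3, Gpx3 and Gstm6, which is 8.57% against 0.209% of all 21525 genes tested. With DESeq2 on the recovered reads, the study's own test, 9 were higher, namely the same 3 plus Gsta2, Gsta4, Gstm1, Gstm2, Gstm7 and Gstk1. That was 27.3% of the 33 members with an adjusted p from DESeq2, against 1.59% of 19790 genes. Because the members were not chosen blind to these data, these shares are a description and no independent support. edgeR called the same 3 members as limma-trend. Fits without 1 mouse called 0 to 6 members with limma-trend and 8 to 10 with DESeq2. Over all genes, these fits called 6 to 123 higher with limma-trend and 220 to 424 with DESeq2, against 45 and 314 with all mice. No member was lower with limma-trend, edgeR or DESeq2, where 0.00465% (limma-trend) and 0.718% (DESeq2) of all genes were. An unadjusted limma-trend p under 0.05 was seen in 10 of the 35 members, all higher, where 5.36% of all genes were higher and 4.64% lower at that threshold. The median log2 fold change of the 35 members was 0.11, and that of all genes tested was -0.02. By class, the genes called by DESeq2 were all 3 alpha genes tested, 4 of 7 mu genes, the kappa gene and 1 of 7 peroxidases. Those called by limma-trend were 1 alpha gene, 1 mu gene and 1 peroxidase. The pi, theta, omega, zeta and microsomal classes and the genes of synthesis, reduction and turnover had no call.

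**Figure D2:**
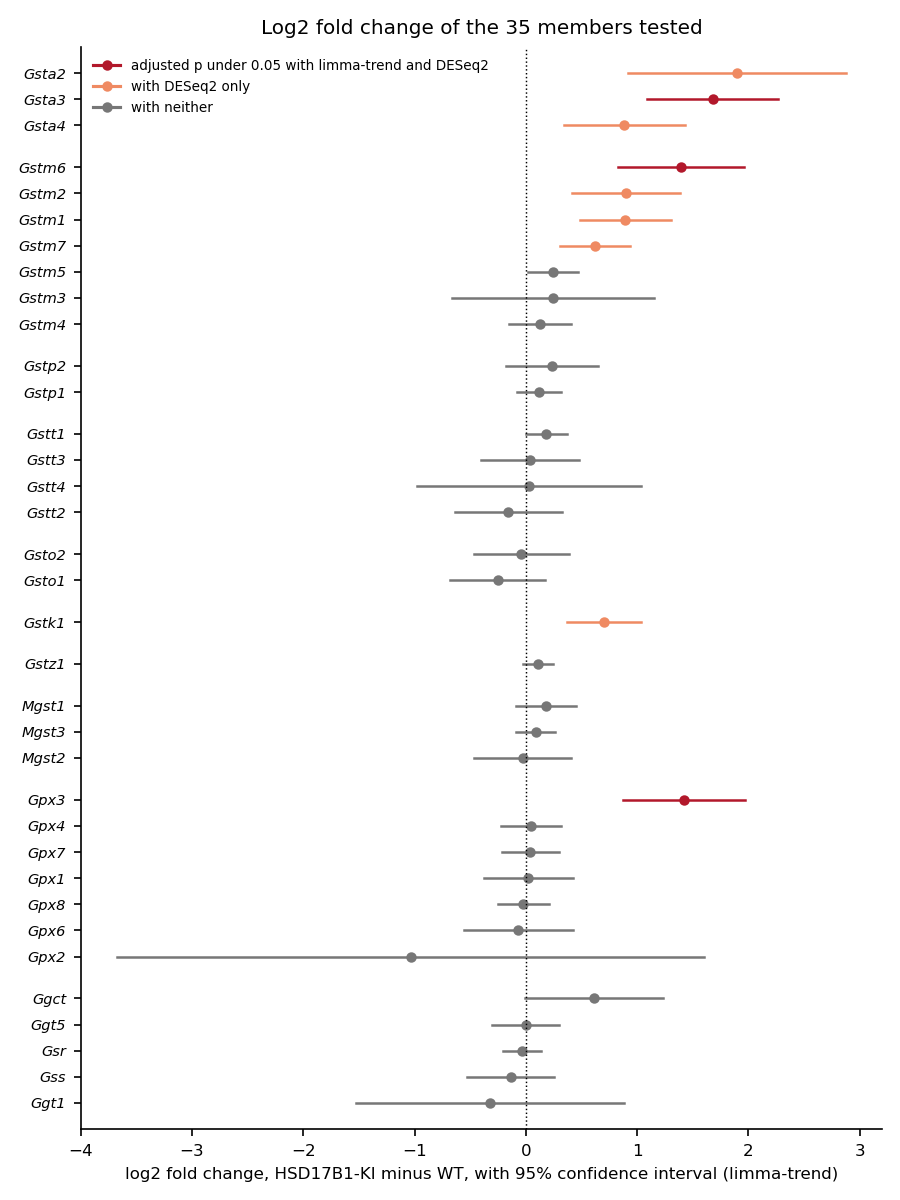
Log2 fold change, HSD17B1-KI minus WT, with its 95% confidence interval from limma-trend, for the 35 members tested, grouped by class (n = 7 and 8). The 9 coloured genes sit between 0.62 and 1.89, and the intervals of all others except Gstm5 include 0.

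Gsta3, an alpha-class transferase known for conjugating aflatoxin epoxide, had the lowest adjusted p of all members. Its normalized count was 1039 to 4775 (median 1945) in HSD17B1-KI and 483 to 1045 (median 648) in WT. Only HSD17B1-KI 5, at 1039, fell just below the highest WT mouse, at 1045, so 6 of 7 HSD17B1-KI mice exceeded the whole WT group. The means were 2435 ± 1312 (SD, n = 7) and 694 ± 188 (SD, n = 8), a 3.51-fold ratio. The log2 fold change was 1.68 with a standard error of 0.28 (adjusted p = 0.0276 with limma-trend). DESeq2 gave an adjusted p of 3.83e-07. Gsta3 passed in 11 of the 15 limma-trend fits that left out 1 mouse and in all 15 of DESeq2. The 4 in which limma-trend lost it left out HSD17B1-KI 2, HSD17B1-KI 4, WT 2 or WT 4.

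Gsta2, the least certain count among the alpha genes tested, had 314 to 2834 (median 1271) in HSD17B1-KI and 94.6 to 559 (median 246) in WT. Its log2 fold change of 1.89 (standard error 0.46) was the highest of all members, but its spread was also the widest of those called. The limma-trend adjusted p was 0.109 and the DESeq2 adjusted p 0.00143. Gsta4, which detoxifies the lipid peroxidation product hydroxynonenal, had 3014 to 10961 (median 5873) in HSD17B1-KI and 1783 to 4367 (median 3228) in WT, with 5 of 7 HSD17B1-KI mice above every WT mouse. Its log2 fold change was 0.89 with a standard error of 0.26 (adjusted p = 0.194 with limma-trend and 0.0296 with DESeq2), the lowest of the class. It was the least stable call, and DESeq2 lost it in 7 of 15 fits, without HSD17B1-KI 1, 2, 6 or 7 or without WT 2, 5 or 6.

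Gstm6, a minor gene of the mu cluster, had 571 to 2705 (median 1508) in HSD17B1-KI and 394 to 849 (median 464) in WT. HSD17B1-KI 5 was again the mouse inside the WT range, and WT 4, at 849, stood above the other WT mice. The means were 1449.5 ± 695 (SD, n = 7) and 511 ± 148 (SD, n = 8), and the log2 fold change was 1.39 with a standard error of 0.27 (adjusted p = 0.0468 with limma-trend and 2.04e-05 with DESeq2). The limma-trend call stood in 1 of the 15 fits without 1 mouse, the one without HSD17B1-KI 5, and the DESeq2 call in all 15. Gstm1, the most abundant mu gene, had 31699 to 97999 (median 57431) in HSD17B1-KI and 24692 to 36812 (median 30773) in WT. Gstm2 had 19874 to 78718 (median 36658) and 16032 to 29619 (median 20493). In both, every HSD17B1-KI mouse except number 5 exceeded the WT range. Their log2 fold changes were both 0.90, with standard errors of 0.19 and 0.23. The adjusted p was 0.0763 and 0.124 with limma-trend and 0.000444 and 0.00558 with DESeq2, for Gstm1 and Gstm2 in that order. Gstm7 had the lowest log2 fold change of the 4 called mu genes and went from 1499.9 to 2904 (median 2005) in WT to 2401 to 4075 (median 2929) in HSD17B1-KI. This log2 fold change was 0.62 with a standard error of 0.15 (adjusted p = 0.0977 with limma-trend and 0.0104 with DESeq2). The cluster also held genes with small differences, Gstm5 with a log2 fold change of 0.24 (limma-trend adjusted p = 0.452), Gstm3 with 0.24 and Gstm4 with 0.13, the lowest. Gstm4 and Gstm5 lie at the 2 ends of the cluster, and Gstm3, with means of 4.64 and 3.06, was barely detected between Gstm6 and Gstm2, and 28.8% of its 50-base words recurred in other genes.

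Gstk1, a kappa-class enzyme of mitochondria and peroxisomes, had 1244 to 2974 (median 2075) in HSD17B1-KI and 1028 to 1450.0 (median 1208) in WT. Here the HSD17B1-KI mouse inside the WT range was number 7, and the other 6 were above every WT mouse. The log2 fold change was 0.71 with a standard error of 0.16 (adjusted p = 0.0849 with limma-trend and 0.00134 with DESeq2).

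**Figure D3:**
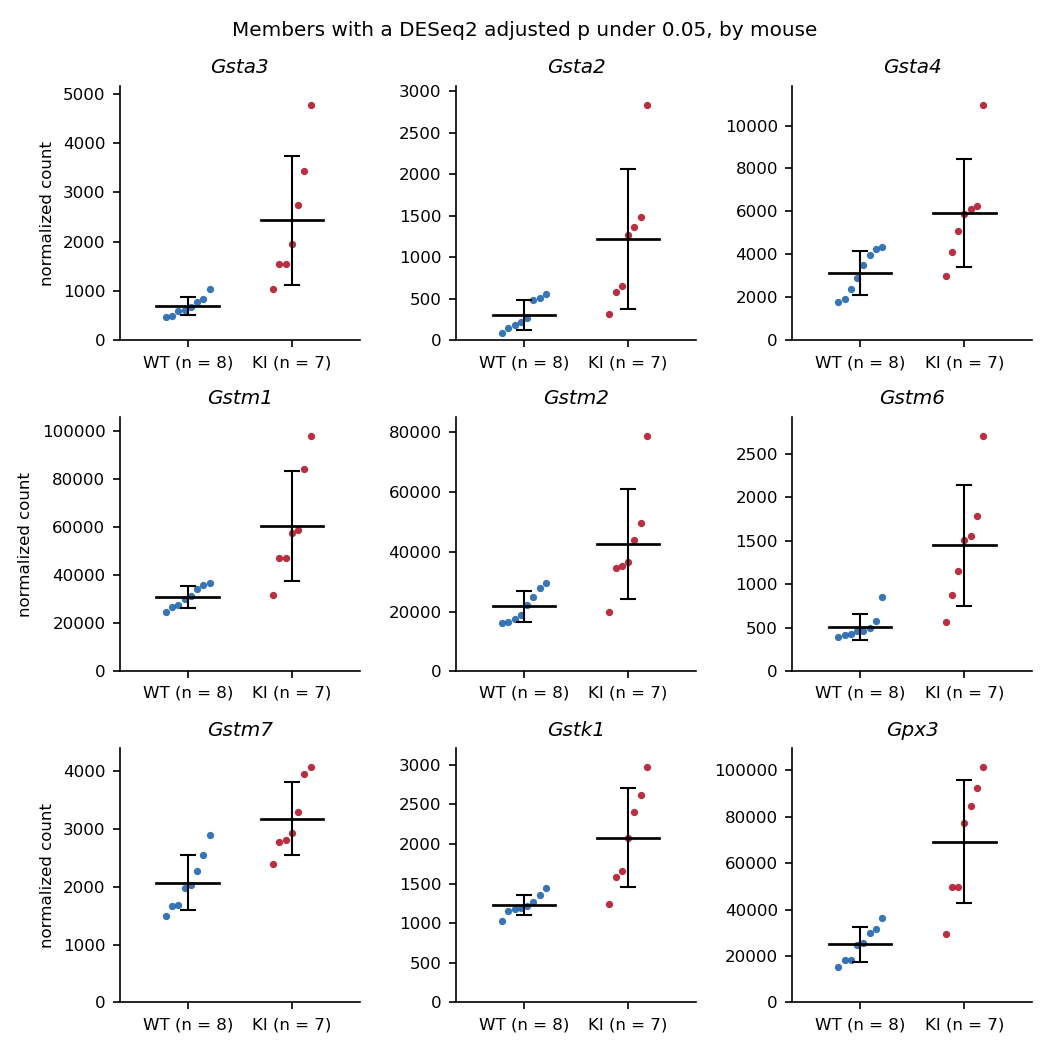
Normalized counts by mouse (points) with mean and SD (black) in WT (n = 8) and HSD17B1-KI (n = 7) ovaries for the 9 members with a DESeq2 adjusted p under 0.05. In 7 of the 9 panels 6 HSD17B1-KI mice lie above every WT mouse, and in no panel do all 7.

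Among the other transferases no gene passed either test, and each is given by its best expressed member. Gstp1, the pi-class enzyme, had 3175 to 4559.7 (median 4006) in HSD17B1-KI and 2958 to 4084 (median 3484) in WT, with a log2 fold change of 0.12 (95% interval -0.08 to 0.32). Gstt1, of the theta class, had 1538 to 2066 (median 1639) and 1278 to 1674 (median 1581), with a log2 fold change of 0.18 (95% interval -0.0012 to 0.37). Its HSD17B1-KI values were all above the WT mean. Gsto1, an omega-class enzyme that reduces dehydroascorbate, had 2510.3 to 4565 (median 2839) and 1989.9 to 6892 (median 3548), with a log2 fold change of -0.25 (95% interval -0.68 to 0.17). Gstz1, which isomerizes maleylacetoacetate in tyrosine breakdown, had 2759.7 to 3308 (median 3050.2) and 2584 to 3357 (median 2747), with a log2 fold change of 0.11 (95% interval -0.02 to 0.25). Mgst1, the membrane-bound enzyme of endoplasmic reticulum and mitochondria, had 14252 to 25897 (median 18549.6) and 13338 to 21012 (median 16314), with a log2 fold change of 0.18 (95% interval -0.09 to 0.45). In all 5 the genotypes overlapped. The lowest and highest log2 fold changes were 0.12 (Gstp1) and 0.24 (Gstp2) in the pi class, -0.16 (Gstt2) and 0.18 (Gstt1) in theta, -0.25 (Gsto1) and -0.04 (Gsto2) in omega, and -0.03 (Mgst2) and 0.18 (Mgst1) among the microsomal enzymes. WT 1 had the highest value of all 15 mice for Gstt2, Gstt3, Gsto1 and Gsto2, and it was also the mouse with the most Ovgp1.

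Among the peroxidases the difference lay in Gpx3, the secreted selenoenzyme of plasma, on chromosome 11 from 54902453 to 54910377. Its normalized count was 29657 to 101425 (median 77179) in HSD17B1-KI and 15068 to 36442 (median 25059) in WT. HSD17B1-KI 6, at 29657, lay within the WT range and the other 6 were above it. The ratio of the means was 2.77, and the log2 fold change was 1.42 with a standard error of 0.26 (adjusted p = 0.0371 with limma-trend and 8.92e-06 with DESeq2). The limma-trend call stood in only 3 of the 15 fits without 1 mouse, those without HSD17B1-KI 5, HSD17B1-KI 6 or WT 6, and the DESeq2 call in all 15. Gpx1, the cytosolic peroxidase, had 7833 to 17184 (median 9659) in HSD17B1-KI and 7135 to 15483 (median 9772) in WT, with a log2 fold change of 0.02 (95% interval -0.38 to 0.43). Gpx4, which reduces phospholipid peroxides within membranes, had 7147 to 10990.5 and 6625 to 11714, with a log2 fold change of 0.05 (95% interval -0.22 to 0.31). The lowest log2 fold change was that of Gpx2, a peroxidase of epithelia, at -1.03 (95% interval -3.67 to 1.60), where WT 1 and WT 8 had 139 and 105 normalized counts and the other mice 0 to 32.5. Gpx6, Gpx7 and Gpx8 had log2 fold changes between -0.07 and 0.04.

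None of the genes of synthesis, reduction and turnover passed. Gsr, which regenerates reduced glutathione and was the highest of these genes per kilobase, had 2402 to 3271 (median 2991) in HSD17B1-KI and 2545 to 3489 (median 3080.3) in WT. Its log2 fold change was -0.04 (95% interval -0.21 to 0.14). Ggct, which releases oxoproline from gamma-glutamyl peptides, had the highest log2 fold change, 0.61 (95% interval -0.01 to 1.23, limma-trend adjusted p = 0.508, DESeq2 adjusted p = 0.185). Its HSD17B1-KI values split, with 597 and 486 in HSD17B1-KI 4 and 5 and 1069 to 2127 in the other 5, all above the highest WT value of 1049. DESeq2 called Ggct without HSD17B1-KI 5, and also without the 4 mice with the least Cyp17a1. Over all genes, those fits called 424 and 477 higher, against 314 with all mice. The lowest was that of the cell surface enzyme Ggt1, at -0.32 (95% interval -1.52 to 0.88), with 209 and 115 in WT 1 and WT 8 and 7.5 to 67.4 elsewhere. Gss, the synthetase, and Ggt5 had log2 fold changes of -0.14 and 0.00.

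The mice of a genotype did not rank alike for all called genes. HSD17B1-KI 1 had the highest value of all 15 mice for Gsta2, Gsta3, Gsta4, Gstm1, Gstm2, Gstm6, Gstm7 and Gstk1, but was the third highest for Gpx3, at 84365. HSD17B1-KI 5 had the lowest value of its genotype for Gsta2, Gsta3, Gsta4, Gstm1, Gstm2 and Gstm6, yet the second highest for Gpx3, at 92238. HSD17B1-KI 6, the lowest of its genotype for Gpx3, was the second highest for Gsta3, Gstm1, Gstm2 and Gstm6. The 2 HSD17B1-KI mice with the least Cyp17a1, numbers 4 and 5, had the highest Gpx3 and Gpx1 of their genotype, and WT 3 and 6, the WT mice with the least Cyp17a1, had the highest Gpx1 and the lowest Gsta4 and Gsta2 of theirs. WT 4, 7 and 8, the WT mice with the most Cyp17a1 (13298 to 21605), had the highest Gsta2, Gstm1, Gstm2 and Ggct of WT and the lowest Gpx3 and Gstm7. A fit without HSD17B1-KI 4 and 5 and WT 3 and 6 was added after the data had been seen. There DESeq2 called 9 members, with Ggct in place of Gstm7, and limma-trend called Gsta3 and Gstm6. Over all genes, DESeq2 there called 477 higher and 369 lower, against 314 and 142 with all mice, and limma-trend 72 higher against 45. In the mice that remained, Cyp17a1 was 24106 to 56551 in HSD17B1-KI and 2033 to 21605 in WT, so this fit did not balance it. Without WT 1 and WT 8, the mice with the most Ovgp1, DESeq2 called the same 9 members as with all mice and limma-trend only Gsta3. Over all genes, DESeq2 there called 193 higher and 51 lower, and limma-trend 9 higher.

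**Figure D4:**
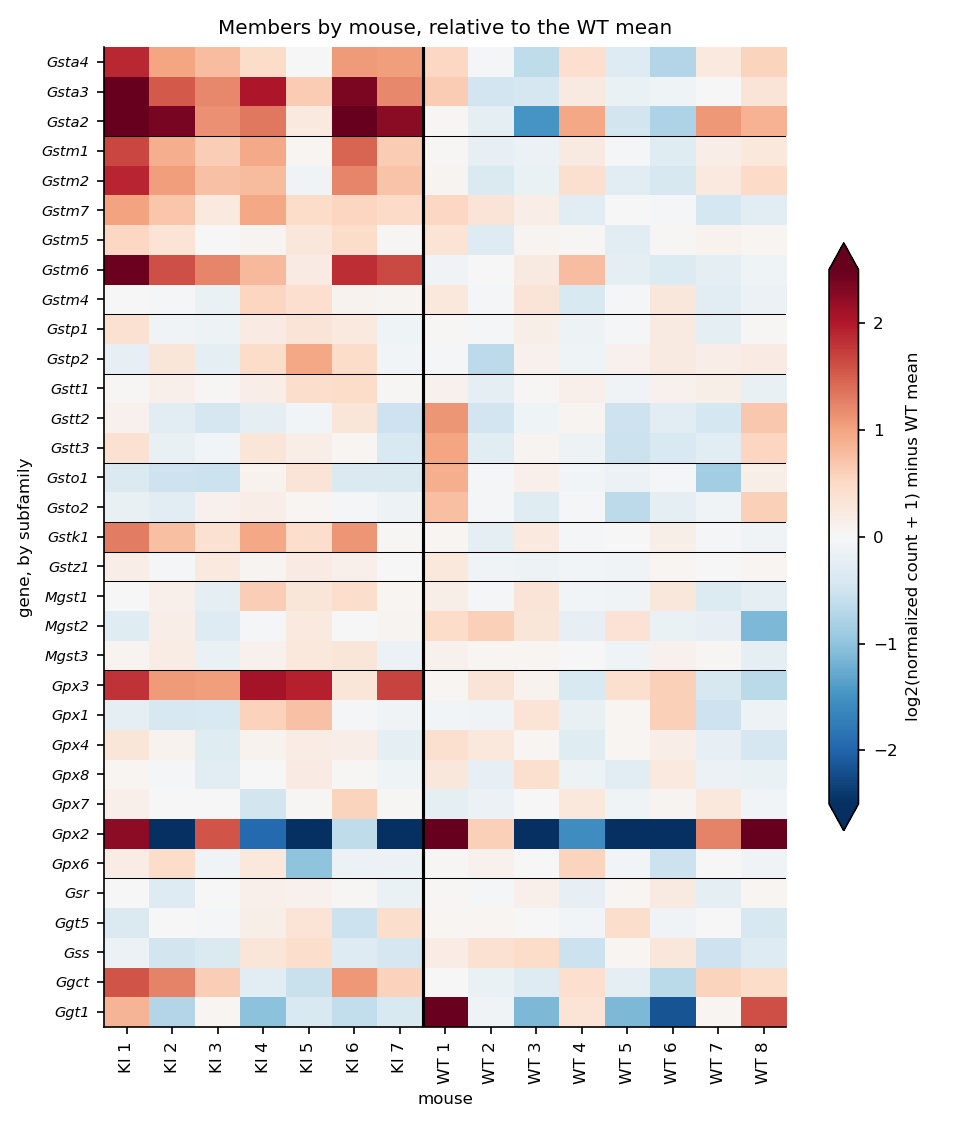
Log2(normalized count + 1) minus the WT mean for the 33 members with a mean of at least 10 (rows, by class) in each mouse (columns), red above and blue below the WT mean, with colours saturating at 2.5. The rows of Gsta2, Gsta3, Gsta4, Gstm1, Gstm2 and Gstm6 are darkest in HSD17B1-KI 1 and, among mutants, palest in HSD17B1-KI 5, while the Gpx3 row is darkest in HSD17B1-KI 4 and 5.

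Non-overlap of the genotypes was not reached by any member, where 0.274% of all genes had every HSD17B1-KI mouse above every WT mouse. In 8 of the 35 members (22.9%) each of the 7 HSD17B1-KI values exceeded the WT mean, against 3.74% of all genes. These were Gsta2, Gsta3, Gstm1, Gstm6, Gstm7, Gstk1, Gstt1 and Gpx3.

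Whether paralogs changed unequally was tested within mice, as the log2 ratio of 2 genes of the same library, which does not depend on size factors. The 5 pairs were chosen with the direction of Gpx3, Gsta3 and Gstm6 already known, and p-values are from two-sided exact permutation tests over all 6435 splits of the mice, adjusted over the 5 pairs. The log2 ratio of Gpx3 over Gpx1 was 1.22 ± 0.32 (SD, n = 8) in WT ovaries and 2.62 ± 0.53 (SD, n = 7) in mutant ovaries, a difference of 1.40 (exact p = 0.000311, adjusted p = 0.00155). Against Gpx4 the difference was 1.38 (exact permutation p = 0.000622, adjusted p = 0.00155). In both ratios 6 of 7 HSD17B1-KI mice exceeded all WT mice. Since the directions were known when the pairs were chosen, these p-values are no independent support. The ratio of Gsta3 over Gsta4 rose by 0.79, from -2.15 ± 0.35 to -1.35 ± 0.50 (exact permutation p = 0.00342, adjusted p = 0.0057). That of Gstm6 over Gstm1 rose by 0.50 (exact permutation p = 0.0232, adjusted p = 0.0232), with 4 of 7 HSD17B1-KI mice past the WT range. That of Gstp1 over Gstm1 fell by 0.77, from -3.13 ± 0.32 to -3.91 ± 0.52 (exact permutation p = 0.00513, adjusted p = 0.00641), where HSD17B1-KI 5 alone was above the WT mean. Gpx4, Gstp1, Gstm1 and Gstm6 share 51.4%, 51%, 19.9% and 9.74% of their 50-base words with other genes. Ratios with these genes are therefore uncertain, by an amount that was not measured.

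**Figure D5:**
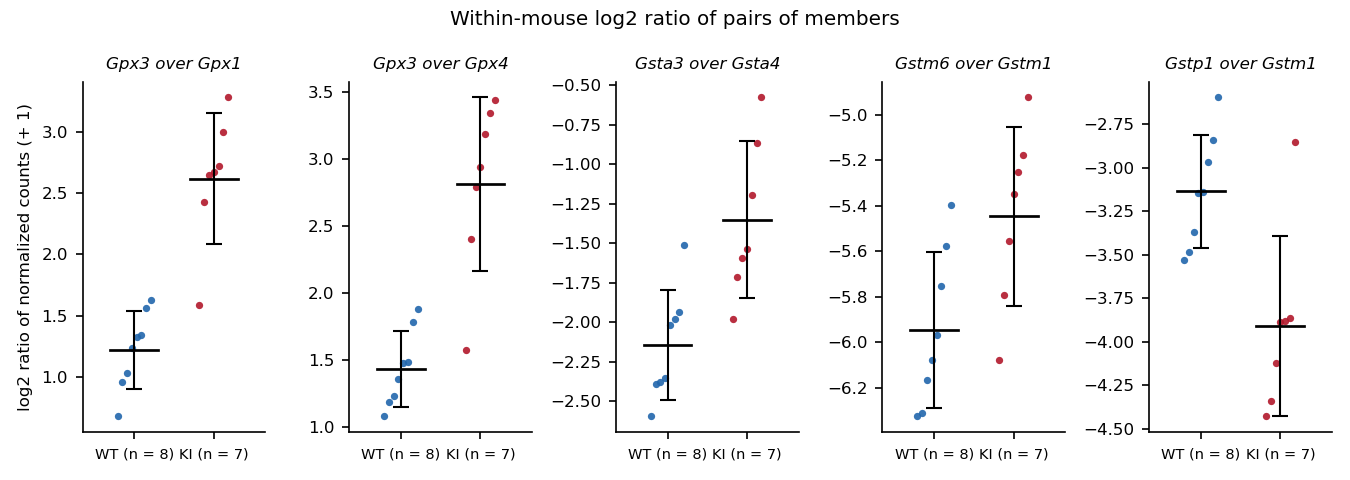
Log2 ratio of 2 members within each mouse (points) with mean and SD (black) in WT (n = 8) and HSD17B1-KI (n = 7), for the 5 pairs tested. The Gpx3 ratios separate the genotypes except for 1 HSD17B1-KI mouse, and the Gstp1 over Gstm1 ratio lies lower in HSD17B1-KI.

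Promoter sequence was searched for 3 motifs on both strands in RefSeq windows of GRCm38.p6, from 250 bases before to 50 after each start. The core of the antioxidant response element (TGACNNNGC), which NRF2 binds, was in 8 of the 48 windows of 33 members (16.7%), against 12.4% of all 32851 windows. Of the 9 members called by DESeq2, 8 had windows, and the core was in 2 of their 12 windows, those of Gsta3 and Gstm7. The NR5A1 site (CAAGGTCA) was in 1 member window (2.08%) against 1.56% of all, and the AP-1 site (TGANTCA) in 4 (8.33%) against 7.81%, with neither in a window of a called member. No motif overlapped another in the windows named here. The match in Gsta3, the member with the lowest adjusted p, began 121 bases before the start, on the plus strand. The 60 bases around it, chr1:21240435-21240494, are shown with the match in capitals, and nothing about binding follows from it.
Gsta3 promoter: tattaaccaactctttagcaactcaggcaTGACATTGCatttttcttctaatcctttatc

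The other genes of glutathione metabolism were read from 4 lists. Of 21 genes of glutathione synthesis, transport and turnover, none passed limma-trend and 2 were higher with DESeq2. Of 33 partners that use thiols or NADPH, 1 was higher with limma-trend and 5 with DESeq2. Of 12 further enzymes that bind glutathione, DESeq2 called 1 higher and 1 lower, as it did of 18 genes of selenoprotein synthesis and supply, and limma-trend called none of either list. Over all genes tested, DESeq2 called 1.59% higher and 0.718% lower and limma-trend 0.209% higher. The median log2 fold changes of the 4 lists were 0.06, 0.13, -0.12 and 0.02. Hmox1, the heme oxygenase and the only gene called by limma-trend, went from 2739 ± 691 (SD, n = 8) in WT to 5287 ± 1477 (SD, n = 7) in HSD17B1-KI, a log2 fold change of 0.94 (limma-trend adjusted p = 0.0468). Ephx1, the microsomal epoxide hydrolase, rose with a log2 fold change of 0.80 (DESeq2 adjusted p = 0.00461), and so did Dpep1, a dipeptidase of glutathione breakdown, with 0.80 (DESeq2 adjusted p = 0.00689), and the quinone reductase Nqo1, with 0.72 (DESeq2 adjusted p = 0.00559). Lrp8, a receptor that takes up selenoprotein P, was lower, at 1233 ± 435 (SD, n = 7) against 3713 ± 3073 (SD, n = 8), with a log2 fold change of -1.30 (DESeq2 adjusted p = 0.00928, limma-trend adjusted p = 0.248).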

How the data were processed

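Ovarian RNA of 15 mice was sequenced by the authors from stranded mRNA libraries, demultiplexed (bcl2fastq 2.20), trimmed and aligned to mm10 with STAR 2.7.3. The counting program, its strand setting and its annotation are not given in the sources used here. The deposited values are a normalized signal, gene counts divided by 1 size factor per library. Dividing by the smallest step gave whole reads for 100% of values (tolerance 0.01).

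The main test was limma-trend (limma 3.58.1, R 4.3.3) on log2(normalized count + 1), two-sided, with genotype as the only term, for genes averaging at least 2, and Benjamini-Hochberg adjustment over all of them at 0.05. A fold change on this scale understates that of low genes. DESeq2 1.42.0 and edgeR 4.0.16 (quasi-likelihood test, TMM) were run on the recovered reads. Code was tested on simulated data. Gene positions and exon lengths were from GENCODE M21, which held 27533 of the 27907 identifiers and all 37 members, and shared sequence was measured as 50-base words of transcripts.

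The members, lists and pairs were chosen with earlier results of these data known. Values are given for each member passing limma-trend or DESeq2 and for the highest per kilobase of each class. For the rest, classes are given by their lowest and highest log2 fold change, with further members named after their values were seen. List genes are named if they passed, up to 5 by log2 fold change. Alternatives changed the pseudocount, the filter, the scaling, the test and the mice included.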

Additional observations from a re-analysis of the deposited data

Results flagged for a closer look

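In 8 of 70 sets of values (35 members, each genotype apart), 1 mouse lay far from the others by Dixon's ratio of gap to range, which chance does in about 1 in 20 sets. WT 1 stood out for Gsto1 (6892 normalized counts, next 4047) and Gstz1 (3357, next 2913), WT 2 for a low Gstp2 (39.5, next 58.4), WT 4 for Gstm6 (849, next 581) and WT 5 for Ggt5 (3042, next 2329). HSD17B1-KI 1 stood out for Gsta4 (10961, next 6249) and Ggt1 (67.4, next 38.4), and HSD17B1-KI 4 for Gstt4 (11.8, next 4.88). Of these genes only Gsta4 and Gstm6 were called by any test, and without the mouse named the log2 fold change of Gsta4 was 0.72 and that of Gstm6 1.51.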

How the results depend on the processing

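The number of members called higher was 3 with limma-trend, edgeR, both other pseudocounts, the stricter filter and both other scalings, 2 without a filter, and 9 with DESeq2. It was 1 without WT 1 and WT 8 (added after the data had been seen), and between 0 and 6 when 1 mouse was left out. The 0 was reached by dropping number 2 or 4 of either genotype, 1 resulted without HSD17B1-KI 1 or 3 or WT 1, 3, 5, 7 or 8, and the 6 without HSD17B1-KI 5. Over all genes, limma-trend called 6 to 9 higher in the fits with 0 members, 123 without HSD17B1-KI 5 and 45 with all mice. It called 27 higher without a filter and 9 without WT 1 and WT 8. The DESeq2 count ranged from 8 to 10 without 1 mouse, where 220 to 424 of all genes were called higher, and no setting called a member lower. For the 9 called members the adjusted p over these settings, without the replicate block given below, reached at most 0.08 (Gsta3), 0.156 (Gpx3), 0.173 (Gstm6), 0.189 (Gstm1), 0.231 (Gstk1), 0.215 (Gstm7), 0.24 (Gsta2), 0.269 (Gstm2) and 0.362 (Gsta4), and no direction changed. Of the 35 members tested, 15 changed sign in at least 1 fit, none of them called by limma-trend or DESeq2. Of the 15 members that the naming rule picked, only Gsr was among these, with a log2 fold change from -0.0691 to 0.0126 when 1 mouse was left out and the value above 0 without HSD17B1-KI 2. Replicate numbers did not pair the mice, since correlations of same-numbered mice ran from -0.55 to 0.55 and only number 1 matched its own number best. With the number as a block, limma-trend called 0 members and 0 of all genes, with an adjusted p of 0.167 for Gsta3 and 0.371 for the other 8 called members. For the within-mouse ratios the block meant another exact test, which flipped the signs of differences between same-numbered mice and left out WT 8. In it the ratio of Gstm6 over Gstm1 gave a difference of 0.45 (exact sign-flip p = 0.125). The other 4 ratios kept their direction and call under the block and all else tried. Without 1 mouse, the differences ran from 1.29 to 1.57 (Gpx3 over Gpx1), 1.27 to 1.58 (Gpx3 over Gpx4), 0.66 to 0.90 (Gsta3 over Gsta4), 0.41 to 0.60 (Gstm6 over Gstm1) and -0.95 to -0.69 (Gstp1 over Gstm1). Gsta1, Gpx5, Gstm3 and Gstt4 had means under 5 in both genotypes, too low to resolve a small difference, and Gsta1 and Gstm3 also share sequence with other genes. The cause of these shifts was not tested.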
